A study of Mus musculus with 16 samples.

Results

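The genes described here are 39 neighbours of Aim2 on mouse chromosome 1. They were chosen by symbol from the 53090 genes of the deposited tables, as genes of the stretch around the Aim2 locus, to look for differences that go with DNA linked to that locus. The PYHIN genes, the family of Aim2 itself, and the SLAM family were set aside in that choice, although Slamf8 and Slamf9 are on the list. All 39 symbols were found, on 41 rows, because Hnrnpu and Desi2 each had a second row with the same value in every library. The levels given for both genes are those of the row that has an annotation entry. Whether reads were split between the 2 rows was not tested. If they were, the level of 1 row would be lower than that of the gene. Aim2 lies at chr1:173350879-173466040 (GRCm38), 32 of the members lie at lower coordinates, from 0.718 to 2.48 Mb away from it, and 7 lie at higher coordinates, from 2.15 to 6.2 Mb away.

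RNA was sequenced from 16 libraries in 4 groups of 4, and the same 4 groups are used throughout. The WT Tn and Aim2-/- Tn libraries came from naïve CD4+ T cells taken fresh from spleen by immunomagnetic selection. The WT Treg and Aim2-/- Treg libraries came from cells cultured for 48 h with antibodies to CD3 and CD28, recombinant human TGF-beta and mouse IL-2, and no sort of FOXP3+ cells afterwards is described. Mice of both genotypes were C57BL/6, with the Aim2-/- line kept on that background, and were bred in the same facility, cohoused after weaning and matched for sex and age. Whether they were littermates, how many backcrosses the line had, the ages, whether mice were pooled, and whether a Treg library shares its mice with a Tn library are not given in the sources used here. The p-values therefore measure the spread between these libraries.

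A gene that is altered in a mouse line travels with the DNA beside it. When such a line has been crossed from 1 strain to another, a stretch around the gene can keep the first strain's alleles for many generations, and genes in that stretch can differ in level between mutant and control mice whatever the altered gene does. The deposited tables hold counts and no read sequence, so the strain of origin of the stretch was not tested here, and an effect of Aim2 and an effect of DNA linked to it cannot be told apart in this design.

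The stretch holds genes of many kinds. Its best known immune genes are those of the Fc receptors, surface proteins of macrophages, granulocytes, mast cells, NK cells and B cells that bind the constant part of antibodies. Fcgr3 encodes an activating low-affinity receptor for IgG, Fcer1g the gamma chain through which activating Fc receptors signal, and Fcgr2b the inhibitory low-affinity receptor. T cells are not known for these receptors. The other members include genes of haem synthesis, vesicle transport, glycosylation, protein folding, DNA repair and the cytoskeleton, which most cells use.

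Part of the Fcgr3 message cannot be assigned to its gene from a short read, and the sequence is shown for that reason. Of the 1733 windows of 51 bases (the read length) in the annotated Fcgr3 transcripts, 163 (9.41%) also occur in transcripts of Fcgr2b, and the longest run that the coding parts of both genes share is 129 bases. In the sequence below, written 5′ to 3′ on the transcribed (minus) strand, the capitals mark the 27 bases that come from exon 4 and the lower case letters the 102 bases of exon 3. In Fcgr3 the parts lie at chr1:171057691-171057792 and chr1:171054167-171054193, and in Fcgr2b at chr1:170967980-170968081 and chr1:170966674-170966700 (GRCm38).
Fcgr3 and Fcgr2b: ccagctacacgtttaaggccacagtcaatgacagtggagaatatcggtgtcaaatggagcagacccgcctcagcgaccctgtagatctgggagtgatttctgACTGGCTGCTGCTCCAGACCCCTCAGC
The other windows were found in no other annotated transcript. Of the 39 members Fcgr3 was one of 20 whose expected count was not a whole number in at least 1 library, as happens when a read fits more than 1 gene.

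The libraries held from 22516424 to 34533316 counts, so that 3 counts, taken as the floor, stood for 0.0869 to 0.133 CPM (counts scaled to library size, with TMM factors over the 16 libraries), a floor that covers counting error only. Replicates of a group correlated at 0.981 or more, but some genes split within a group. Ccr7 was at 1378, 1559, 408 and 414 CPM in WT Tn replicates 1 to 4. In Aim2-/- Tn it was at 1108, 663.5, 627 and 720 CPM. Nrp1 was at 137, 113, 111 and 40.9 CPM in WT Treg and 139, 112, 38.0 and 44.4 in Aim2-/- Treg. Among the members, Vangl2 was at 0.724, 0.552, 1.76 and 1.75 CPM in WT Tn, and Exo1 at 1.55, 1.93, 0.670 and 0.809. What lies behind these splits was not tested. Aim2, the check of the labels, was at 34.9 ± 2.86 CPM (SD, n = 4) in WT Tn against 7.29 ± 1.29 in Aim2-/- Tn and at 40.3 ± 3.11 in WT Treg against 9.33 ± 1.58 in Aim2-/- Treg, so that it was lower in the Aim2-/- libraries but not absent from them. The summed level of 8 genes of Treg culture (Foxp3, Il2ra and others) was 65.5 to 141 CPM in Tn and 1992 to 2506 CPM in Treg libraries. The summed level of 8 erythroid and platelet genes did not overlap between genotypes in Tn (3.91 to 6.82 CPM in WT against 7.07 to 9.52 CPM in Aim2-/-), and its part in the results for Tn cells was not tested. Of the 3 of these genes that were tested, none passed the adjusted threshold in edgeR's quasi-likelihood test and 2 had an unadjusted p under 0.05. That of 15 myeloid genes overlapped, at 26.0 to 33.8 CPM in WT Tn and 27.5 to 44.0 in Aim2-/- Tn, and at 29.95 to 43.8 in WT Treg and 34.0 to 45.9 in Aim2-/- Treg, and S100a8 was at 0 in every library. Most of that sum was Cst3 (18.8 to 30.6 CPM over the Tn libraries). That of 12 B cell genes, most of it Ighm, overlapped as well, at 431 to 551 CPM in WT Tn and 477 to 579 in Aim2-/- Tn, and at 161.5 to 198 in WT Treg and 186 to 222 in Aim2-/- Treg, with Ms4a1 at 0 in every library.

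Per kilobase of annotated exon, Tagln2 (transgelin 2, an actin-binding protein) was the highest member in all 4 groups, from 128 CPM per kb in WT Tn to 245 in Aim2-/- Treg. Arhgap30 came next in Tn, at 58.7 and 60.4 CPM per kb in WT and Aim2-/-, and Hnrnpu (a nuclear RNA-binding protein) came next in Treg, at 55.0 and 58.0. At the other end, Fcgr2b, Slamf8, Kmo (kynurenine 3-monooxygenase), F11r (junctional adhesion molecule A) and Klhdc9 (a kelch domain protein) stayed under the count filter (a minimum of 10 counts in 4 or more of the libraries compared) and were not tested in any of the comparisons below. Of these, Fcgr2b stood at 1, 2, 0 and 0 counts in WT Treg replicates 1 to 4 and at 7.13, 8.23, 6.08 and 4.42 expected counts in Aim2-/- Treg, so that the groups did not overlap, with a ratio of summed levels of 9.38 (95% exact counting interval 2.86 to 48.6). Fcgr2b shares sequence with Fcgr3, and its expected count was not whole in 11 libraries. The interval does not cover how shared reads were assigned between the genes. F11r did not overlap in Tn, at 0.126 to 0.237 CPM in WT and 0.247 to 0.586 CPM in Aim2-/-, on few counts.

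The first question was which members differed between Aim2-/- and WT cells. In Tn, 31 members passed the count filter and were tested, and 1 passed an adjusted p of 0.05. The p-values were those of edgeR's quasi-likelihood test, adjusted after Benjamini-Hochberg over all 13441 genes tested, of which 0.231% passed (0.134% higher and 0.0967% lower). That gene was the non-coding Gm37065, which was lower in Aim2-/- and passed the count filter through its WT libraries. At an unadjusted p under 0.05 there were 2 members higher and 8 lower, against 10.3% of all genes (5.59% higher and 4.75% lower). The groups did not overlap for 1 member higher and 6 lower in Aim2-/-, against 6.84% of all genes (3% higher and 3.84% lower). The median absolute log2 fold change was 0.17 for the members and 0.15 for all genes tested.

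In Treg, 31 members were tested and 4 passed the adjusted threshold, against 0.219% of the 13221 genes tested (0.129% higher and 0.0908% lower). Fcgr3 and Dusp12 were higher in Aim2-/- cells, and Adamts4 and Ppox were lower. Fcgr3 and Adamts4 passed the count filter only through the group in which they were high, so that they had to differ to be tested, and nothing is read from the count of 4. With at least 10 counts required in every library, Dusp12 and Ppox were the 2 members called. At an unadjusted p under 0.05 there were 4 members higher and 12 lower, against 2.31% of all genes (0.961% higher and 1.35% lower). The groups did not overlap for 6 members higher and 10 lower, against 2.33% of all genes (1.38% higher and 0.945% lower). Both of these counts include Fcgr3, Adamts4 and Dusp23, and Dusp23 also passed the filter only through its WT libraries. The median absolute log2 fold change was 0.20 for the members and 0.08 for all genes tested. The plot by distance shows both comparisons.

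**Figure D1:**
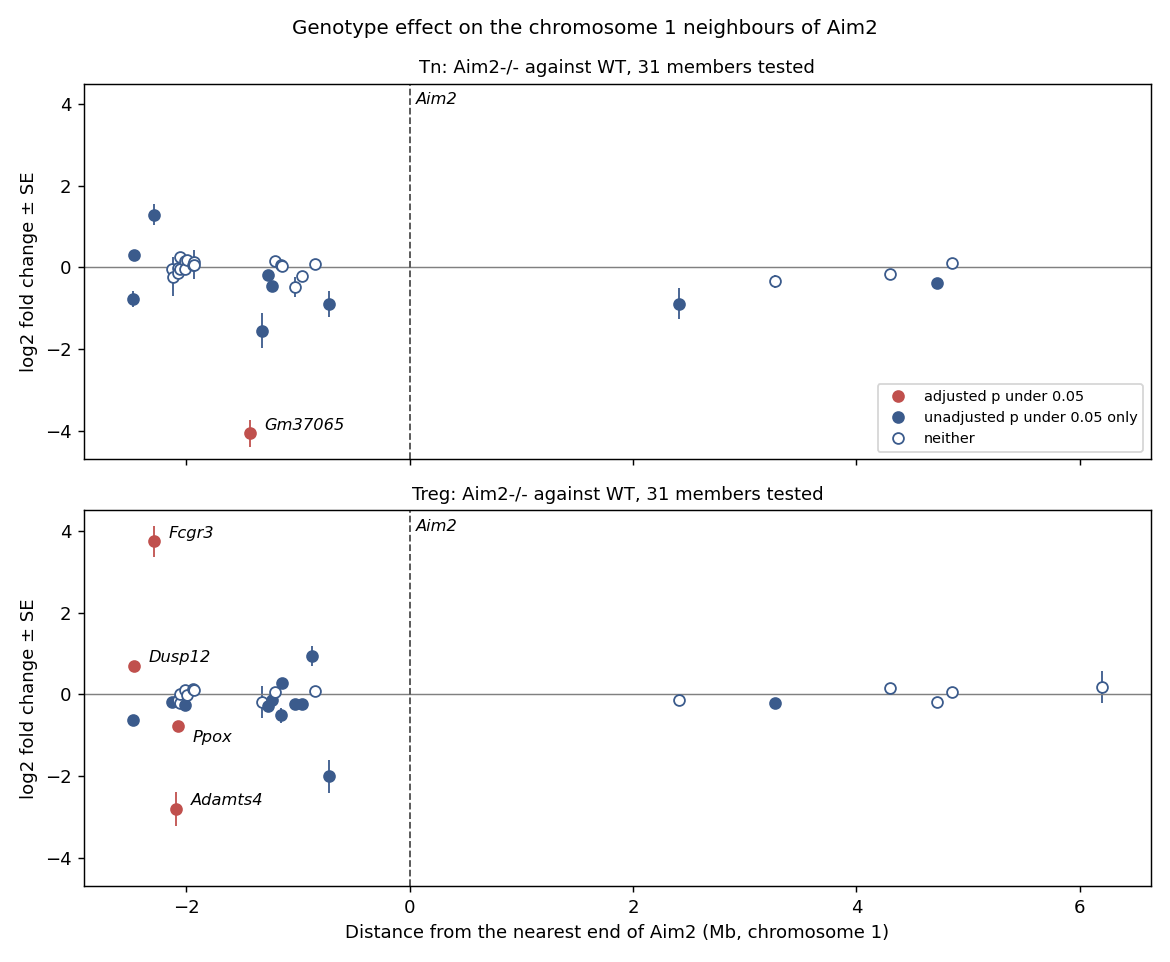
Log2 fold change of each tested member, Aim2-/- against WT, with its standard error (bars), by distance in Mb from the nearest end of Aim2 (dashed line), in Tn above and Treg below. Red points passed an adjusted p of 0.05, filled blue points an unadjusted p of 0.05 only, and open points neither. The 5 red points, Gm37065 in Tn and Fcgr3, Dusp12, Ppox and Adamts4 in Treg, lie from 1.43 to 2.47 Mb below Aim2.

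Among the Fc receptors, Fcgr3 was the member with the largest rise. In Tn it was at 0.758, 0.867, 1.26 and 1.38 CPM in WT replicates 1 to 4 and at 2.01, 2.63, 3.15 and 2.51 CPM in Aim2-/-. In Treg it was at 0.103, 0.174, 0.122 and 0.0752 CPM in WT, which is 2 to 6 counts a library, and at 1.45, 0.946, 2.26 and 2.08 CPM in Aim2-/-. The groups did not overlap in either state. The log2 fold change was 1.29 ± 0.26 (SE) in Tn, with an adjusted p of 0.13, and 3.74 ± 0.39 in Treg, with an adjusted p of 0.0042 (edgeR's quasi-likelihood test, Benjamini-Hochberg). The call in Treg held without any 1 WT library (adjusted p from 0.018 to 0.038), and without any 1 Aim2-/- library the gene fell under the filter. Fcgr3 passed the count filter in Treg only through its Aim2-/- libraries, so that it had to differ to be tested there. The fits without 1 WT library keep that condition and cannot test it. Summed with Fcgr2b, with which it shares sequence, it was at 0.0752 to 0.232 CPM in WT Treg and 1.24 to 2.46 CPM in Aim2-/- Treg, which did not overlap either. In a bulk sample, more cells that express a gene and more RNA in each of them cannot be told apart.

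Fcer1g, whose product carries the Fcgr3 receptor to the surface, had no such rise in level. It was at 0.237 to 0.586 CPM in WT Tn and 0.193 to 0.696 CPM in Aim2-/- Tn, with a log2 fold change of -0.23 ± 0.48 and an adjusted p of 0.89 (edgeR's quasi-likelihood test, Benjamini-Hochberg). In Treg it had at most 4 counts in any WT library and at most 1 count in any Aim2-/- library. Of the 15 myeloid markers, Lyz2, Tyrobp, S100a8 and S100a9 were at 0 in all 8 Treg libraries, while Cst3 was at 24.2 to 26.8 CPM and Mpeg1 at 6.64 to 20.7 CPM in Aim2-/- Treg, against 22.4 to 26.3 and 2.65 to 17.9 CPM in WT Treg.

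In Tn, some markers of cells that carry Fc receptors were also higher in Aim2-/- libraries, while others overlapped. The myeloid gene Adgre1 was at 0 to 0.337 CPM in WT Tn and 0.112 to 0.257 CPM in Aim2-/- Tn. The B cell gene Cd79b was at 0.158 to 0.503 and 0.187 to 0.450 CPM. The summed level of 9 NK cell genes overlapped as well, at 55.1 to 74.1 CPM in WT Tn and 44.3 to 74.35 CPM in Aim2-/- Tn. Lyz2 was at 0.118 to 0.922 CPM in WT Tn and 0.928 to 1.43 CPM in Aim2-/- Tn, and the B cell gene Cd79a at 0.607 to 0.906 and 1.098 to 1.70 CPM, both with groups that did not overlap. Of the myeloid genes 6 were tested in Tn, with 0 at an unadjusted p under 0.05, and of the B cell genes 6, with 3 at such a p, and none of them passed the adjusted threshold in edgeR's quasi-likelihood test. The part of these cells in the Fcgr3 and Fcgr2b values was not tested.

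The bases upstream of the RefSeq start of Fcgr3 are shown because this gene differed most among the members in Treg. RefSeq (GRCm38.p6) gives starts for 33 of the 39 members, and of the overlapping windows listed for Fcgr3 the one at chr1:171059395-171059644 (minus strand) is printed, 250 bases long and ending at the base before the start. GAGGAA, the core of the site bound by the myeloid and B cell factor PU.1, was searched on both strands, and its match is in capitals. It is found in 23.3% of the 32851 windows of that length. The Ppox window, chr1:171281187-171281436 (minus strand), is printed for comparison as that of a gene that was lower in Aim2-/- Treg, with its 4 matches to CCAAT on either strand in capitals. CCAAT is found in 33.8% of the windows. A match is a description of the reference letters and says nothing of the alleles in these mice.
Fcgr3: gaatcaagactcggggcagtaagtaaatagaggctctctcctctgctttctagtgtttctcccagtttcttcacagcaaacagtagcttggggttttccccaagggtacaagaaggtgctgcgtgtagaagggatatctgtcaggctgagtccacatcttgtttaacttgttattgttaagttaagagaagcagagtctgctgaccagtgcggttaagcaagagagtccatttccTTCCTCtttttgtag
Ppox: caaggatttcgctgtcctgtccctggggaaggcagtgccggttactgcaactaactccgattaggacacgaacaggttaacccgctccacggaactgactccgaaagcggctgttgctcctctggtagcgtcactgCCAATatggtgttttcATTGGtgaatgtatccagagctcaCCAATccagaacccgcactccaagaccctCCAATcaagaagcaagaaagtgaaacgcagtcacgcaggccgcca
The Fcgr3 window holds 3 CG dinucleotides and that of Ppox 13, where the median window holds 6, with quartiles of 2 and 16.

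**Figure D2:**
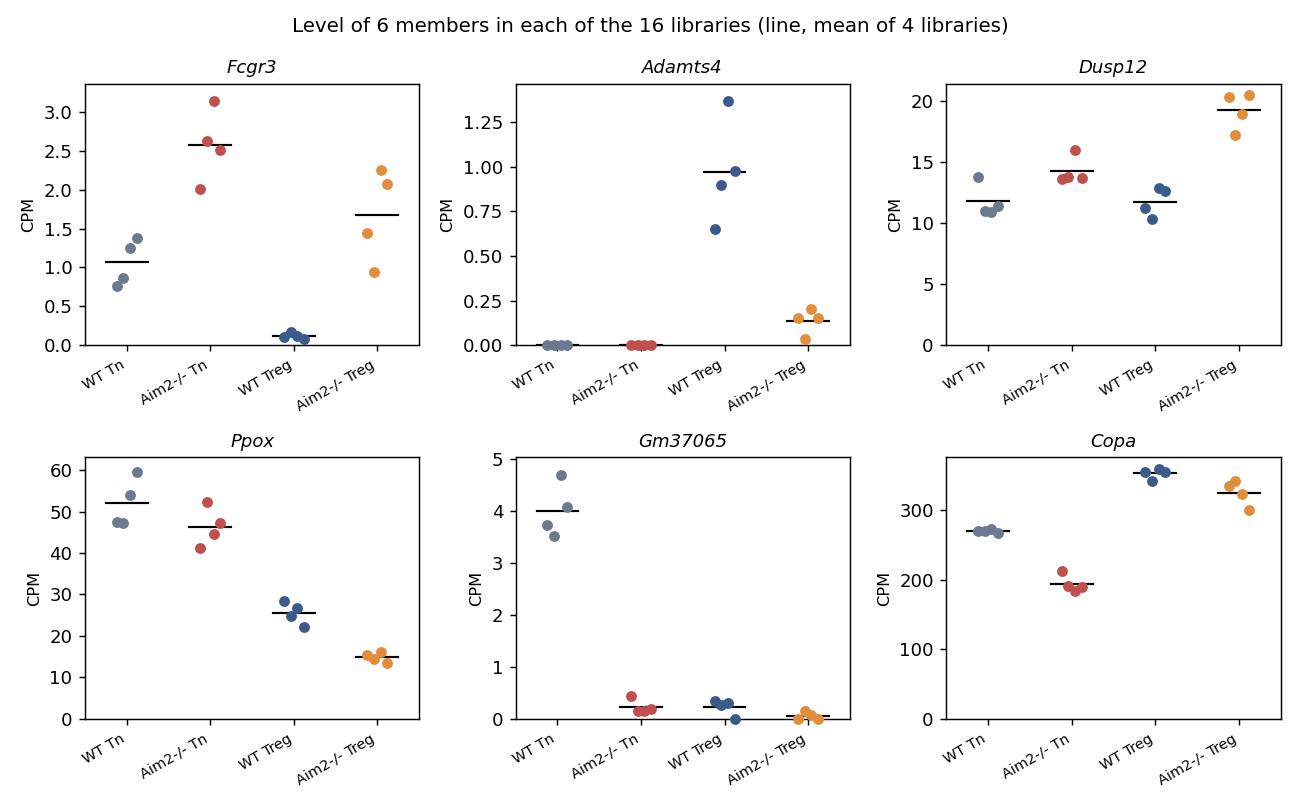
Level in CPM (linear axis from 0) of Fcgr3, Adamts4, Dusp12, Ppox, Gm37065 and Copa in each of the 4 libraries of the 4 groups, with a line at the group mean. The Aim2-/- Treg libraries lie above all WT Treg libraries for Fcgr3 and Dusp12 and below them for Adamts4, Ppox and Copa, and Adamts4 is at 0 in all 8 Tn libraries.

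Among the genes of mitochondria, haem and small-molecule metabolism, Ppox stood out in Treg. Ppox encodes protoporphyrinogen oxidase, the penultimate enzyme of haem synthesis. It was at 28.3, 24.9, 26.8 and 22.1 CPM in WT Treg and at 15.3, 14.6, 16.2 and 13.6 CPM in Aim2-/- Treg, with no overlap. The log2 fold change was -0.78 ± 0.10 and the adjusted p 0.014 (edgeR's quasi-likelihood test, Benjamini-Hochberg). When 1 library at a time was removed, only the fit without WT Treg replicate 4 kept the call, with adjusted p-values over these 8 fits from 0.0093 to 0.099. In Tn it was at 47.2 to 59.5 CPM in WT and 41.2 to 52.4 CPM in Aim2-/-, overlapping, with a log2 fold change of -0.15 ± 0.11 and an adjusted p of 0.66. Of the 8 genes of this group 6 were tested in Treg, and 3 were lower at an unadjusted p under 0.05: Ppox, Nit1 (a nitrilase-like amidase, -0.25 ± 0.07) and Tomm40l (a relative of a mitochondrial import channel, -0.18 ± 0.06), all with groups that did not overlap. None of the 6 tested in Tn had such a p. Nit1 shares 2134 exonic bases with Dedd on the opposite strand, and Tomm40l shares 3304 with Nr1i3. Expected counts were not whole in 16 libraries for Nit1 and in 14 for Tomm40l. Dedd was at 29.4 to 34.7 CPM in WT Treg and 28.1 to 40.0 CPM in Aim2-/- Treg. The part of these overlaps in the values of Nit1 and Tomm40l was not tested. Adss (adenylosuccinate synthase), Pex19 (a chaperone of peroxisomal membrane proteins), Sccpdh and Tstd1, where tested, had log2 fold changes from -0.16 to 0.17 over both states, with groups that overlapped.

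Ppox and its neighbour B4galt3, a Golgi galactosyltransferase, run towards each other on opposite strands and share 791 exonic bases. The library kit keeps the strand, but whether the counting used it is not given in the sources used here, and the expected count of both genes was not whole in any of the 16 libraries. B4galt3 itself was at 21.7 to 27.2 CPM in WT Treg and 18.9 to 25.5 CPM in Aim2-/- Treg. The sum of both genes was at 47.4 to 54.0 CPM in WT Treg and 34.2 to 41.5 CPM in Aim2-/- Treg and did not overlap either.

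Adamts4 encodes a secreted metalloprotease that cleaves aggrecan. It had no count in any of the 8 Tn libraries. In Treg it had 19, 31, 45 and 26 counts in WT and 4, 1, 6 and 4 counts in Aim2-/-, which is 0.974 ± 0.299 CPM (SD, n = 4) against 0.136 ± 0.0712. The groups did not overlap, and the fitted log2 fold change was -2.81 ± 0.42 with an adjusted p of 0.039 (edgeR's quasi-likelihood test, Benjamini-Hochberg). Leaving out any 1 Aim2-/- library ended the call (adjusted p from 0.10 to 0.16), and without any 1 WT library the gene fell under the filter. Adamts4 passed the count filter in Treg only through its WT libraries, so that it had to differ to be tested there. Measured against the floor of 3 counts a library in Tn, the level in Treg was at least 8.69-fold higher in WT and at least 1.33-fold higher in Aim2-/-. The other surface and matrix genes tested in Treg were Slamf9 (a SLAM family member, 0.94 ± 0.24), Igsf8 (a partner of tetraspanins, -0.25 ± 0.07) and Vangl2 (a planar cell polarity protein, -0.18 ± 0.39), none of which passed the adjusted threshold. Slamf9 was at 0.791 to 1.13 CPM in WT Treg and 1.22 to 2.43 CPM in Aim2-/- Treg and did not overlap. Vangl2 did not overlap in Tn, where it was at 0.552 to 1.76 CPM in WT and 0.290 to 0.476 CPM in Aim2-/-, a log2 fold change of -1.55 ± 0.43 with an adjusted p of 0.33 in the same test.

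Among the genes of protein modification and folding, Dusp12, a dual-specificity phosphatase, was higher in Aim2-/- Treg. Its level was 11.2, 10.3, 12.9 and 12.6 CPM in WT Treg and 20.3, 17.2, 18.9 and 20.5 CPM in Aim2-/- Treg, with no overlap. The log2 fold change was 0.70 ± 0.10 and the adjusted p 0.026 (edgeR's quasi-likelihood test, Benjamini-Hochberg). Leaving out any 1 of the 8 libraries ended the call, with adjusted p-values from 0.074 to 0.13 and log2 fold changes from 0.65 to 0.75. In Tn it was at 13.8, 11, 10.9 and 11.4 CPM in WT, against 13.6, 13.8, 15.96 and 13.7 CPM in Aim2-/-, where 1 WT library reached the Aim2-/- range, with a log2 fold change of 0.30 ± 0.12 and an adjusted p of 0.43.

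Dusp12 shares exons with a gene that was lower in Aim2-/- cells. Gm9929, a processed transcript on the opposite strand that is not on the list, overlaps 891 exonic bases of Dusp12, and both had expected counts that were not whole in any library. It was at 1.79 ± 0.264 CPM in WT Tn and 0.429 ± 0.123 in Aim2-/- Tn, and at 1.07 ± 0.195 in WT Treg and 0.264 ± 0.0475 in Aim2-/- Treg (SD, n = 4). Its log2 fold change was -2.02 in both states, with an SE of 0.28 in Tn and 0.25 in Treg and an adjusted p of 0.014 in each (edgeR's quasi-likelihood test, Benjamini-Hochberg). In Treg it passed the count filter only through its WT libraries, so that it had to differ to be tested there. Its expected counts were 23.7 to 43.2 in WT Treg and 5.79 to 8.59 in Aim2-/- Treg. The sum of Dusp12 and Gm9929 was at 11.5 to 14.2 CPM in WT Treg and 17.5 to 20.7 CPM in Aim2-/- Treg, which did not overlap.

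**Figure D3:**
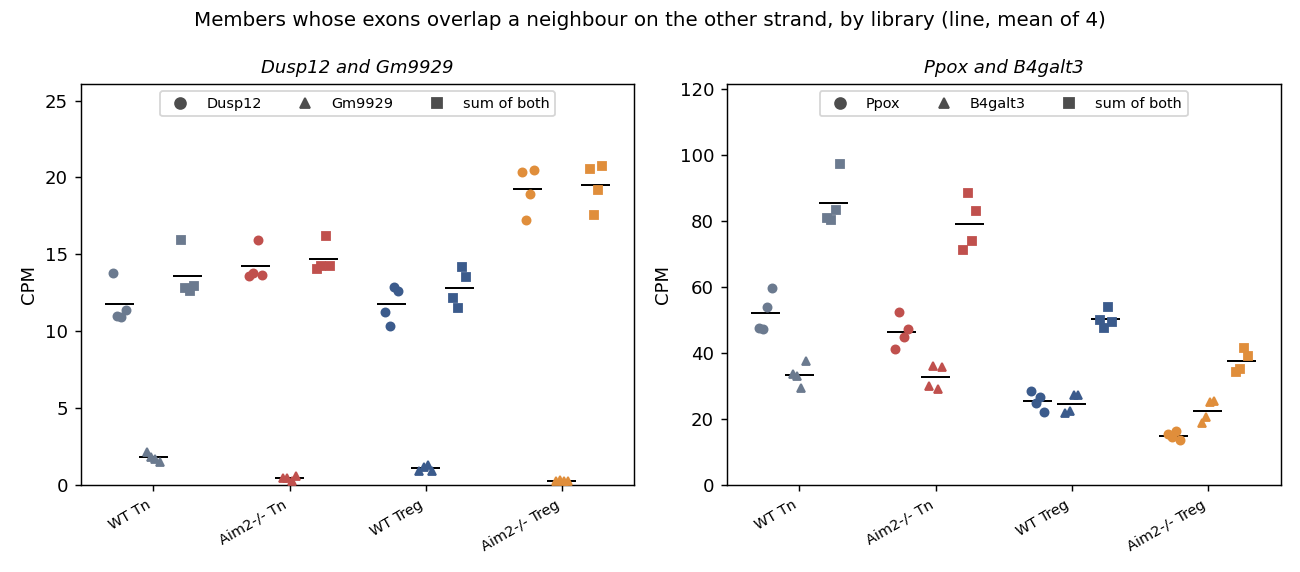
Level in CPM of Dusp12 and Gm9929 (left) and of Ppox and B4galt3 (right), and of the sum of each pair, in each library, with a line at the mean of 4. In Treg the sums do not overlap between genotypes, at 11.5 to 14.2 against 17.5 to 20.7 CPM for the first pair and 47.4 to 54.0 against 34.2 to 41.5 CPM for the second.

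Dusp23, a small phosphatase of the same class, was at 2.31, 2.40, 4.44 and 3.24 CPM in WT Tn and 1.27, 1.18, 2.71 and 1.42 CPM in Aim2-/- Tn, where the groups overlapped through replicate 3 of Aim2-/-. In Treg it was at 0.923, 0.753, 0.457 and 0.564 CPM in WT, against 0.153, 0.182, 0.0684 and 0.264 CPM in Aim2-/-, with no overlap, on few counts. It passed the count filter in Treg only through its WT libraries, so that it had to differ to be tested there. The log2 fold change was -0.89 ± 0.32 in Tn and -2.01 ± 0.40 in Treg, with adjusted p-values of 0.42 and 0.22 (edgeR's quasi-likelihood test, Benjamini-Hochberg), so that neither passed. Of the 7 genes in this group, all tested in both states, Desi2 (a cysteine protease, -0.38 ± 0.10 in Tn, groups apart) and Dcaf8 (a receptor of ubiquitin ligases, -0.52 ± 0.18 in Treg, groups overlapping) had an unadjusted p under 0.05 in 1 state only. Usp21, Ufc1 and Pfdn2 had none in either.

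The 5 genes of the secretory pathway and glycosylation had negative fold changes in both states, where 52.7% of all genes in Tn and 50.1% in Treg had positive ones, and none passed the adjusted threshold in edgeR's quasi-likelihood test, while 3 in Tn and 4 in Treg had an unadjusted p under 0.05. Copa, the alpha subunit of the COPI vesicle coat, came closest. It was at 270.2, 269.4, 272 and 267 CPM in WT Tn and 213, 192, 184 and 189 CPM in Aim2-/- Tn, and at 355, 341.5, 359.5 and 355 CPM in WT Treg and 335, 341, 324 and 299.6 CPM in Aim2-/- Treg. The groups were apart in both states, in Treg by the narrow gap between 341 and 341.5 CPM. The log2 fold change was -0.45 ± 0.08 in Tn with an adjusted p of 0.051, and -0.13 ± 0.05 in Treg with an adjusted p of 1 (edgeR's quasi-likelihood test, Benjamini-Hochberg). In Tn, 7 of 18 alternative fits called Copa, limma-voom and DESeq2 among them, and none of the 8 fits that left out 1 library did. Copa also overlaps 708 exonic bases of the antisense gene Gm37756.

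Atf6, a sensor of stress in the endoplasmic reticulum, was at 8.29 to 9.30 CPM in WT Tn and 3.51 to 6.34 CPM in Aim2-/- Tn, and at 23.0 to 27.7 CPM in WT Treg and 13.4 to 18.3 CPM in Aim2-/- Treg. It overlapped in neither state. The log2 fold change was -0.77 ± 0.19 in Tn, adjusted p 0.28, and -0.62 ± 0.11 in Treg, adjusted p 0.14 (edgeR's quasi-likelihood test, Benjamini-Hochberg). Of 18 alternative fits in Treg, 5 called Atf6 and 2 called Ncstn, a term for replicates 1 and 2 against 3 and 4 among them in both cases. Ncstn, the nicastrin subunit of gamma-secretase, lies head to head with Copa and shares 195 exonic bases with it on the opposite strand. Ncstn was at 74.2 to 79.9 CPM in WT Tn and 62.4 to 70.9 in Aim2-/- Tn, and at 80.0 to 91.6 in WT Treg and 66.6 to 74.7 in Aim2-/- Treg, apart in both (-0.18 ± 0.08 and -0.30 ± 0.07). The sum of Copa and Ncstn was at 344 to 351 CPM in WT Tn and 247 to 283 CPM in Aim2-/- Tn, and at 433 to 446 and 366 to 416 CPM in Treg. Pigm, a mannosyltransferase of GPI anchor synthesis, and B4galt3 had log2 fold changes from -0.23 to -0.01, with groups that overlapped.

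No gene of cell death, signalling and the cytoskeleton, or of transcription and repair, passed the adjusted threshold. Among the first, Pea15a (a death effector domain protein that binds ERK) was at 29.4 to 35.2 CPM in WT Treg and 39.3 to 42.9 CPM in Aim2-/- Treg, a log2 fold change of 0.28 ± 0.07 with an adjusted p of 0.79 (edgeR's quasi-likelihood test, Benjamini-Hochberg). Cep170, a centrosomal protein, was at 37.8 to 45.1 and 33.8 to 35.7 CPM in the same groups (-0.21 ± 0.07), apart as well. Dedd, Arhgap30 and Tagln2 had log2 fold changes from 0.06 to 0.15 over both states. Usf1, a transcription factor, and Hnrnpu had values from 0.07 to 0.13, and Exo1, an exonuclease of mismatch repair, was -0.88 ± 0.39 in Tn at 0.402 to 1.93 CPM and -0.14 ± 0.07 in Treg at 59.1 to 75.6 CPM.

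Gm37065, annotated as an antisense RNA, was the member with the largest fall. It was at 3.72, 3.51, 4.69 and 4.08 CPM in WT Tn and at 0.448, 0.155, 0.146 and 0.193 CPM in Aim2-/- Tn, which is 89 to 121 counts against 4 to 12. The groups were far apart, and the log2 fold change was -4.06 ± 0.33 with an adjusted p of 0.00016 (edgeR's quasi-likelihood test, Benjamini-Hochberg). The gene lies at chr1:171909957-171919356, 1.43 Mb from Aim2, and overlaps the span of Slamf6 on the opposite strand by 1842 bases with no exonic base in common. Slamf6 was at 125 ± 20.4 CPM in WT Tn and 150.1 ± 11.7 in Aim2-/- Tn (SD, n = 4). In Treg, Gm37065 had at most 10 counts in a library, at 0 to 0.342 CPM in WT and 0 to 0.146 CPM in Aim2-/-, and was not tested.

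Position along the chromosome was compared next. All calls among the members lay below Aim2. Of the 7 members above Aim2, 5 were tested in Tn and 6 in Treg, and of the 5 members within 1 Mb below it 3 and 4 were tested. None of these passed the adjusted threshold in edgeR's quasi-likelihood test. At an unadjusted p under 0.05 they gave 2 and 1 members lower above Aim2, and, within 1 Mb below it, 1 lower in Tn and 1 higher and 2 lower in Treg. Dusp23, among the last 2, passed the filter in Treg only through its WT libraries. In the zone over 2 Mb below Aim2, 4 of the 11 members tested in Treg passed, Fcgr3 and Adamts4 through the filter as above. In the zone from 1 to 2 Mb, 1 of the 12 tested in Tn did. That member, Gm37065, passed the count filter through its WT libraries, and nothing is read from its call about position. Genes that were neither members nor of the PYHIN and SLAM families gave 1 call among 99 tested within 10 Mb of Aim2 in Tn (1.01%), against 0.158% of such genes elsewhere in the genome, and 3 among 96 in Treg (3.12%), against 0.138%. Those elsewhere include 98 genes from 10 to 20 Mb away on chromosome 1, of which 2 passed in Tn (2.04%) and 1 in Treg, and 123 genes with no position. The counts are small, and the shares are given as a description. Within 2 Mb of Aim2 or of a called member, and with Aim2 and the PYHIN and SLAM families left out, the non-members that passed were Gm9929 in both states and Uhmk1, a kinase gene at chr1:170193420-170215397, in Treg (-0.31 ± 0.04, adjusted p = 0.026, edgeR's quasi-likelihood test, Benjamini-Hochberg). Gm9929, which is among the 3 calls within 10 Mb in Treg, passed the count filter in Treg only through its WT libraries.

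The genotype effects in Tn and Treg were set side by side, since these comparisons share no library. Of 28 members tested in both, 25 had the same sign, 15 lower and 10 higher in Aim2-/-, where 64.1% of all 12119 genes tested in both had the same sign. An unadjusted p under 0.05 in both states with the same sign was seen for 6 of the 28 (21.4%), namely Atf6, Copa, Dusp12, Dusp23, Fcgr3 and Ncstn, against 0.767% of all genes. Fcgr3 and Dusp23 passed the count filter in Treg only through the group in which they were high. Nothing is therefore read from that share. Across the 28 genes, which are not independent replicates, Pearson's r of the log2 fold changes was 0.69, as a description.

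**Figure D4:**
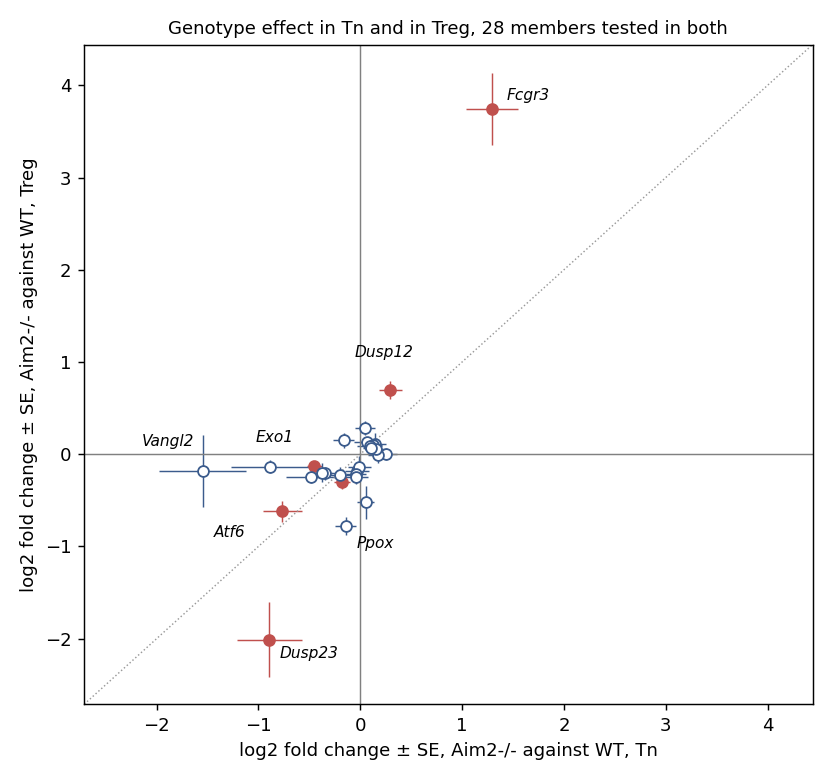
Log2 fold change of Aim2-/- against WT in Tn (x axis) and in Treg (y axis) for the 28 members tested in both, with standard errors. Red points are the 6 members with an unadjusted p under 0.05 in both states and the same sign. The dotted line marks equal values, and 25 of the points lie in the lower left and upper right parts of the plot.

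Whether the genotype effect differed between the states was tested as an interaction over all 16 libraries. None of the 34 members tested passed the adjusted threshold in edgeR's quasi-likelihood test, against 0.0205% of the 14669 genes tested, limma-voom called 0, and DESeq2 called 2, Copa and Fcgr3. At an unadjusted p under 0.05, 6 members had a higher and 2 a lower fold change in Treg than in Tn, against 3.49% of all genes (1.77% higher and 1.72% lower). The difference was 2.46 ± 0.47 on the log2 scale for Fcgr3 (unadjusted p = 7.7e-05, adjusted p = 0.22, edgeR's quasi-likelihood test, Benjamini-Hochberg), -0.63 ± 0.15 for Ppox and 0.33 ± 0.08 for Copa. Adamts4, with no count in Tn, allowed no estimate.

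The culture moved most members in both genotypes. In WT, 16 of the 32 members tested were higher and 12 lower in Treg than in Tn, against 76.9% of all genes called (37.7% higher and 39.2% lower). In Aim2-/-, 15 of 31 were higher and 11 lower, against 79.3% (39.1% higher and 40.2% lower). Of 30 members tested in both genotypes, 25 were called with the same sign, 14 higher and 11 lower, where 73.1% of all genes were. The shares of members called were near those of all genes. Adamts4, Fcgr3 and Slamf9 in WT, and Dusp23 and Slamf9 in Aim2-/-, passed the count filter only through the state in which they were high. Gm37065 in WT and Tstd1 in both genotypes needed their Tn libraries to pass, since fewer than 4 of their Treg libraries reached 10 counts. Sccpdh in Aim2-/-, which was not called, needed its Treg libraries in the same way.

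Among the members called as higher in both genotypes, Exo1 had the largest change. It was at 0.670 to 1.93 CPM in WT Tn and 67.7 to 75.6 CPM in WT Treg, and at 0.402 to 0.804 and 59.1 to 70.5 CPM in Aim2-/-, with log2 fold changes of 5.77 ± 0.27 and 6.55 ± 0.17, the adjusted p being 5.4e-08 and 5.2e-11 (edgeR's quasi-likelihood test, Benjamini-Hochberg). Slamf9 had at most 3 counts in any Tn library, so that it passed the count filter only through its Treg libraries. The ratio of its summed levels in Treg over Tn was 25.4 in WT (95% exact counting interval 9.66 to 94.8) and 35.8 in Aim2-/- (16.2 to 98.7). Igsf8 rose by 1.77 ± 0.25 and 2.03 ± 0.09 in WT and Aim2-/-, Atf6 by 1.51 ± 0.10 and 1.70 ± 0.20, and Cep170 by 1.48 ± 0.12 and 1.65 ± 0.13 on the log2 scale.

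Among those called as lower in both, Dusp23 changed by -2.24 ± 0.31 in WT and -3.33 ± 0.44 in Aim2-/-, and Tstd1, a small sulfurtransferase, by -1.62 ± 0.35 and -1.48 ± 0.37. Usf1 changed by -1.22 ± 0.06 and -1.22 ± 0.08, and Ppox by -1.08 ± 0.11 and -1.69 ± 0.10. For Fcgr3 the values were -3.15 ± 0.36 in WT, with groups that did not overlap, and -0.67 ± 0.28 in Aim2-/-, with groups that did (adjusted p = 2.5e-05 and 0.047, edgeR's quasi-likelihood test, Benjamini-Hochberg). Fcgr3 in WT and Dusp23 in Aim2-/- passed the count filter only through their Tn libraries, so that they had to differ to be tested there. Tstd1 needed its Tn libraries to pass the filter in both genotypes. The Aim2-/- call of Fcgr3 was lost with RLE size factors, with no filter, with replicates 3 and 4 alone, and when Aim2-/- Tn replicate 2, 3 or 4 or Aim2-/- Treg replicate 1 or 2 was left out. The difference between the WT and Aim2-/- values of Fcgr3 is the interaction given above. The 6 members above Aim2 that were tested in Aim2-/- all had positive fold changes, and 5 of them were called, against 39.1% of all genes called as higher. In WT, 5 of the 5 tested were called as higher, against 37.7%. These members are few, and the counts are given as a description.

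**Figure D5:**
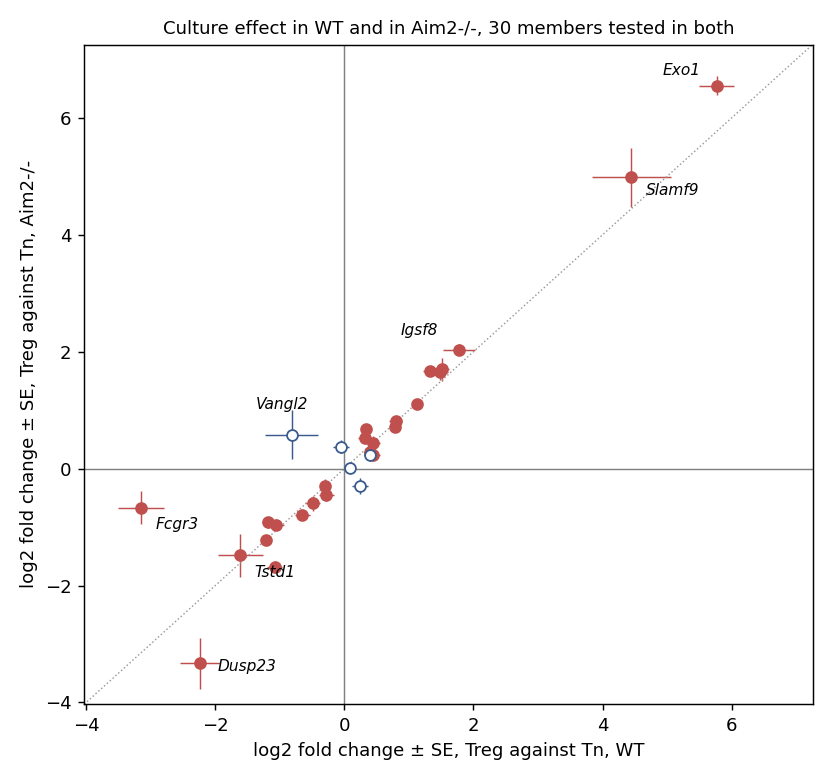
Log2 fold change of Treg against Tn in WT (x axis) and in Aim2-/- (y axis) for the 30 members tested in both, with standard errors. Red points are the 25 members called with the same sign in both genotypes, and the dotted line marks equal values. Fcgr3 lies at -3.15 and -0.67, off that line.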

How the data were processed

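Single-end 51-base reads of stranded mRNA libraries were mapped by the authors with STAR to GRCm38 and quantified with RSEM. The deposited tables hold expected counts per gene, not normalised, 1 library each. Tool versions and the strand setting of the counting are not given in the sources used here. Expected counts were rounded and tested with edgeR 4.0.16 (TMM, robust quasi-likelihood fit, R 4.3.3) on genes that reached 10 counts in 4 or more of the libraries compared. Adjustment was that of Benjamini-Hochberg over all genes tested, with a threshold of 0.05. Genotype effects were fitted on the 8 libraries of each state, culture effects on the 8 of each genotype, and the interaction on all 16. limma 3.58.1 (voom), DESeq2 1.42.0, other scalings, filters and subsets of libraries were alternatives. Positions, exons and overlaps come from the GENCODE M21 annotation of GRCm38, which may differ from that used for counting. Scripts were tested on simulated data. Intervals and floors cover counting error only.

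Named were members called in a genotype or interaction test, those with an unadjusted p under 0.05 and the same sign in both genotype tests, the 3 Fc receptor genes, the 5 largest rises and 5 largest falls in culture called in both genotypes, members under the filter in all 5 comparisons, and up to 3 called non-members within 2 Mb of Aim2 or of a called member. Other members were named after their values were seen, to describe each role group. The members, role groups and marker lists were chosen with earlier results of these data known.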

Additional observations from a re-analysis of the deposited data

Results flagged for a closer look

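In 5 of the 33 groups of 4 libraries checked, 1 library lay apart from the other 3, by a gap whose share of the group's range was over Dixon's 95% critical value. Chance gives this in about 1 in 20 groups. Replicate 1 of Aim2-/- Tn had the highest level of Gm37065 in its group, 0.448 CPM, which was still below the lowest WT Tn library. Dusp12 was highest in WT Tn replicate 1, at 13.8 CPM, the library that made the groups overlap, and in Aim2-/- Tn replicate 3, at 15.96 CPM. Replicate 3 of Aim2-/- Tn also had the highest level of Dusp23, 2.71 CPM, and it was the library that made those groups overlap. Atf6 was lowest in Aim2-/- Treg replicate 3, at 13.4 CPM.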

How the results depend on the processing

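In Tn, 1 member and 31 genes in all passed the adjusted threshold. The count of members was 2 with limma-voom, RLE size factors, no filter or all 16 libraries in 1 fit (Gm37065 and Copa), 3 with a term for replicates 1 and 2 against 3 and 4 and 3 with replicates 3 and 4 alone, 5 with DESeq2, and 0 with at least 10 counts in every library, where Gm37065 was not tested. The count of all genes was 127 with DESeq2, 47 with no filter, 18 with the stricter filter, 50 with all 16 libraries, 51 with the replicate term, 499 with replicates 3 and 4 alone, and 17 to 28 with 1 library left out, while the members stayed at 1 to 1. In Treg, 4 members and 29 genes passed. The members were 2 with the stricter filter, 2 with replicates 1 and 2 alone, 0 with replicates 3 and 4 alone, and 0 to 2 with 1 library left out, which removes samples and also puts Fcgr3 or Adamts4 under the filter. All genes were 52 with DESeq2, 17 with the stricter filter, 5 with replicates 3 and 4 alone and 10 to 17 with 1 library left out. The interaction gave 0 members and 3 genes, against 2 and 10 with DESeq2, 0 genes with the stricter filter, and 0 to 1 members (Fcgr3, without Aim2-/- Treg replicate 2) and 2 to 5 genes with 1 library left out. Where no construction is named, the cause was not tested. With replicates 1 and 2 alone, the log2 fold change in Tn turned to 0.00995 for Ppox and 0.0153 for Fcer1g. Culture counts moved by less than 1.5 times, at 25 to 27 members in WT and 21 to 26 in Aim2-/- with 1 library left out.

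Replicate numbers follow the sample titles, and the names of the deposited tables number some libraries otherwise, which limits what the block, the correlations and the fits by replicate number mean. No source ties same-numbered libraries together, and not every pair deviated together, so the numbers were not taken as pairs. Deviations correlated at 0.046 to 0.45 in Tn and at -0.011 to 0.62 in Treg, over 0.1 in 2 and 3 of the 4 pairs. With the replicate number as a block, 7 of the 31 members tested passed in Treg (Adamts4, Atf6, Dcaf8, Dusp12, Fcgr3, Ncstn and Ppox), against 41 of all 13221 genes tested. Of the 7, Adamts4 and Fcgr3 passed the count filter only through the group in which they were high. In the interaction, 1 gene passed with this block.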
